A study of Homo sapiens with 32 samples.

Results

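Indian hedgehog (IHH, ENSG00000163501) was followed through the differentiation of human embryonic stem cells towards β-like cells, both as a transcript and as a carrier of N6-methyladenosine (m6A). It was chosen from these data for the strong rise in its m6A antibody reads over input reads at stage 3, so its values at stage 0 and stage 3 are given as a description, without a test. All of its merged peaks were taken, which were 2 of the 26104 in the count table, in 1 of 7978 genes. They are listed at positions 324 and 574, which lie 250 apart, and what these positions are counted from is not given in the sources used here. Cells of the human embryonic stem cell lines H1 and MEL1 were collected while undifferentiated, at stage 0 (S0), and as posterior foregut at stage 3 (S3). The later collections were at stage 4 (S4), the pancreatic progenitor stage, and at stage 6 (S6), when cells are immature and β-like. Each line and stage had 2 preparations, which the study describes as independent, and each preparation gave an input library and an immunoprecipitated (IP) library of the RNA fragments bound by the m6A antibody. The labels name no genetic change in either line. The samples were bulk cultures of a directed differentiation, in which fewer cells expressing a gene and less RNA per cell cannot be told apart. By the study's methods, SANT-1, an inhibitor of the Hedgehog transducer Smoothened, was in the medium when S3 and S4 cells were collected, and it was absent from the last medium of the S6 cells.

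Hedgehog proteins are secreted, lipid-modified ligands that bind the receptor Patched and thereby release Smoothened, which lets GLI transcription factors act on target genes. IHH is best known from growing cartilage and from the gut, where the epithelium secretes it and the underlying mesenchyme responds, and Hedgehog ligand is kept low in the part of the foregut endoderm that forms the pancreas. m6A is a modification of adenosines in RNA that is written by a METTL3 and METTL14 complex, is common near stop codons, and is read by proteins that affect the stability and translation of the transcript.

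The bases just upstream of the IHH start site are shown because the level of the transcript differed so much between stages. In the RefSeq promoter table for GRCh38.p14 they lie at chr2:219060922-219061171 on the minus strand. The stretch is written 5′ to 3′ with each CG dinucleotide in capitals.
IHH, upstream: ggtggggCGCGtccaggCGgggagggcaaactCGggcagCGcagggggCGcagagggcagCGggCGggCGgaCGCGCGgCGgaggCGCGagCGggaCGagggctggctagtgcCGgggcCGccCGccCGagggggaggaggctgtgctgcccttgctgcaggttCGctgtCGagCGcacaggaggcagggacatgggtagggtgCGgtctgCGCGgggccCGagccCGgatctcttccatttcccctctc
The stretch held 29 CG dinucleotides, a number reached by 14.1% of the 35116 promoters cut to the same length, whose median was 11. Its GC content was 75.6%, which 9.34% of promoters reached. On both strands it held no TGTTTAC, a form of the FOXA motif found in 2.98% of promoters, no AGATAA, a form of the GATA motif found in 9.17%, and no TATAAA, found in 10.7%. The absence of these letters from this window says nothing about whether such factors bind elsewhere.

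IHH was scarce in undifferentiated cells, highest at S3 and lower again at S4 and S6, in both lines. Its input level is the sum over both peaks in CPM, the number of its reads per 1000000 input reads of the library. In H1 it was 1.83 and 0.876 CPM at S0 and 47.5 and 43.4 CPM at S3. The S4 preparations of H1 held 15.8 and 16.1 CPM and the S6 preparations 4.04 and 3.06 CPM. At every stage MEL1 had more IHH than H1, and its course had the same shape. In MEL1 the level was 6.83 and 6.16 CPM at S0, 538 and 617 CPM at S3, 77.3 and 119 CPM at S4, and 54.1 and 64.2 CPM at S6. No preparation of one line and stage overlapped with those of another.

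**Figure D1:**
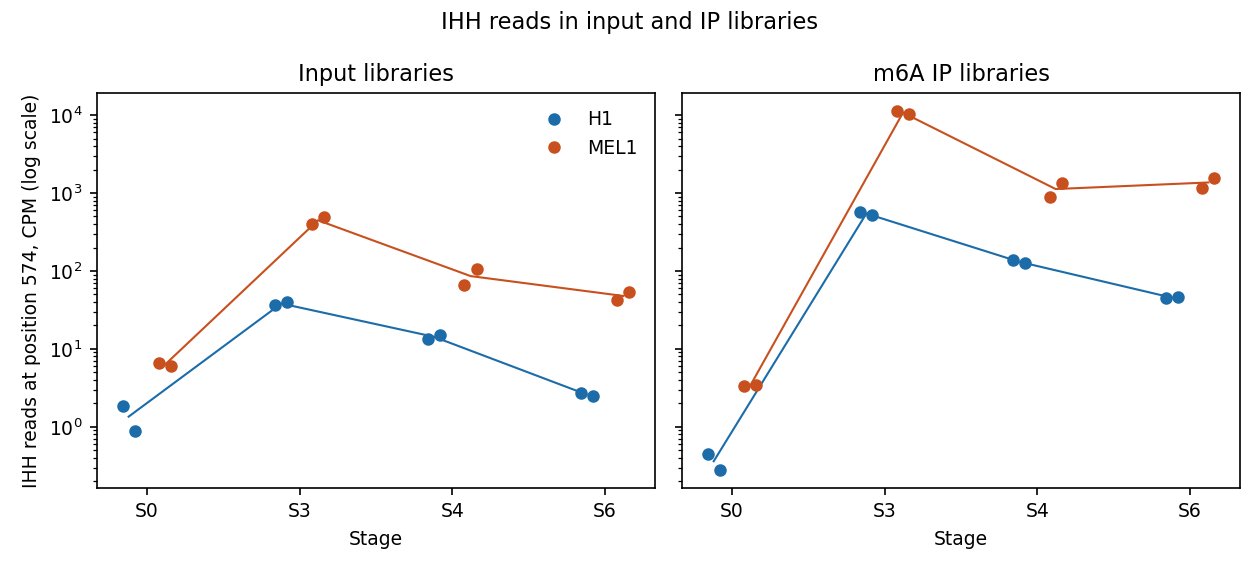
IHH reads at position 574 in CPM on a log axis, in the input libraries (left) and the m6A IP libraries (right), by stage. Each point is 1 library (blue H1, orange MEL1) and lines join the means of 2. In MEL1 the IP level reached 10739 CPM at S3 from 3.39 CPM at S0, and in H1 it reached 545 CPM from 0.362 CPM.

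Ordered by mean input level, the 8 groups ran from MEL1 S3 through MEL1 S4, MEL1 S6, H1 S3, H1 S4, MEL1 S0 and H1 S6 to H1 S0. By the values of the preparations every neighbouring pair in this order was separate. By exact 95% Poisson counting intervals 4 neighbouring pairs overlapped, namely MEL1 S4 with MEL1 S6, MEL1 S6 with H1 S3, MEL1 S0 with H1 S6, and H1 S6 with H1 S0. The last group is the smallest, with 8 and 4 reads of IHH at S0 in H1 and 18 and 11 at S6.

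The difference between S3 and S0 on the log2 scale was 5.73 with a standard error of 0.36 in edgeR's model of stage and cell line, which is a description of the contrast that chose the gene. The same model gave 3.63 for S4 against S0 and 2.35 for S6 against S0, so some of the increase over undifferentiated cells was still present at the last stage. Against S3 the input level differed by -2.10 at S4 and by -3.38 at S6. Each line shows the same order in its own CPM. H1 had 33.6 times as much IHH at S3 as at S0, and MEL1 88.8 times as much.

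From S4 to S6, the step that shares no library with the choice of the gene, IHH fell. In H1 it went from 15.8 and 16.1 CPM to 4.04 and 3.06 CPM, and in MEL1 from 77.3 and 119 CPM to 54.1 and 64.2 CPM. The S6 preparations were below the S4 preparations of the same line in all 4 cases. The log2 difference was -1.28 with a standard error of 0.29 (adjusted p = 0.0181, quasi-likelihood test of edgeR, Benjamini-Hochberg adjusted over 7973 genes). A call here needs an adjusted p under 0.1 and at least a 2-fold change, and 2.33% of all genes were called lower and 2.85% higher in this comparison. Without the cell line in the model the difference was -0.85 and no longer called (adjusted p = 0.825, the same test).

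The fall was larger in H1 than in MEL1. Fitted alone, H1 gave -2.13 and was called (adjusted p = 0.000342, quasi-likelihood test of edgeR, Benjamini-Hochberg adjusted). MEL1 alone gave -0.74, under the 2-fold limit (adjusted p = 0.0202, the same test). The difference between the lines in this step was 1.38 with a standard error of 0.37 (adjusted p = 0.0125, quasi-likelihood interaction test of edgeR, Benjamini-Hochberg adjusted), and 7.70% of genes were called in that direction and 7.55% in the other.

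The peak at position 574 carried the m6A signal of IHH. The ratio of IP CPM to input CPM within a preparation is above 1 where the antibody pulled down more of the transcript than its share of the input. At S0 the ratio was 0.242 and 0.320 in H1 and 0.504 and 0.572 in MEL1. The H1 values rest on 8 and 4 input reads with 5 and 4 IP reads, so their exact 95% counting intervals run from 0.0624 to 0.840 and from 0.0596 to 1.72. All 4 ratios of undifferentiated cells were below 1. At S3 the ratio was 15.8 and 12.9 in H1 and 27.4 and 21.2 in MEL1.

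In MEL1 at S3 this peak had more IP reads than any of the other peaks in the table, in both preparations. It took 153907 and 142203 IP reads, which were 1.11% and 1.03% of the libraries. In the matching input libraries it held 1682 and 2081 reads and ranked 313 and 251 among all peaks. In H1 at S3 it ranked 208 and 245 in the IP libraries. These are S3 values, whose height led to the choice of the gene.

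The ratio stayed high after S3. At S4 it was 10.1 and 8.34 in H1 and 13.7 and 12.7 in MEL1. At S6 it was 16.7 and 18.4 in H1 and 27.7 and 29.3 in MEL1. All 4 ratios at S6 were above all 4 at S4. Within a stage the lines did not overlap in these unscaled ratios. After TMM scaling, edgeR's scaling by trimmed means, the log2 ratios of the lines overlapped at S6, where the lower MEL1 ratio lay between the H1 ratios of 4.04 and 4.22, and at S4 MEL1 (2.89 and 2.75) lay below H1 (3.51 and 3.28). The H1 ratios at S6 rest on 12 and 9 input reads, with intervals from 9.48 to 32.5 and from 9.62 to 40.3, so they overlap with the H1 intervals at S4, which run from 7.58 to 13.8 and from 6.67 to 10.6.

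**Figure D2:**
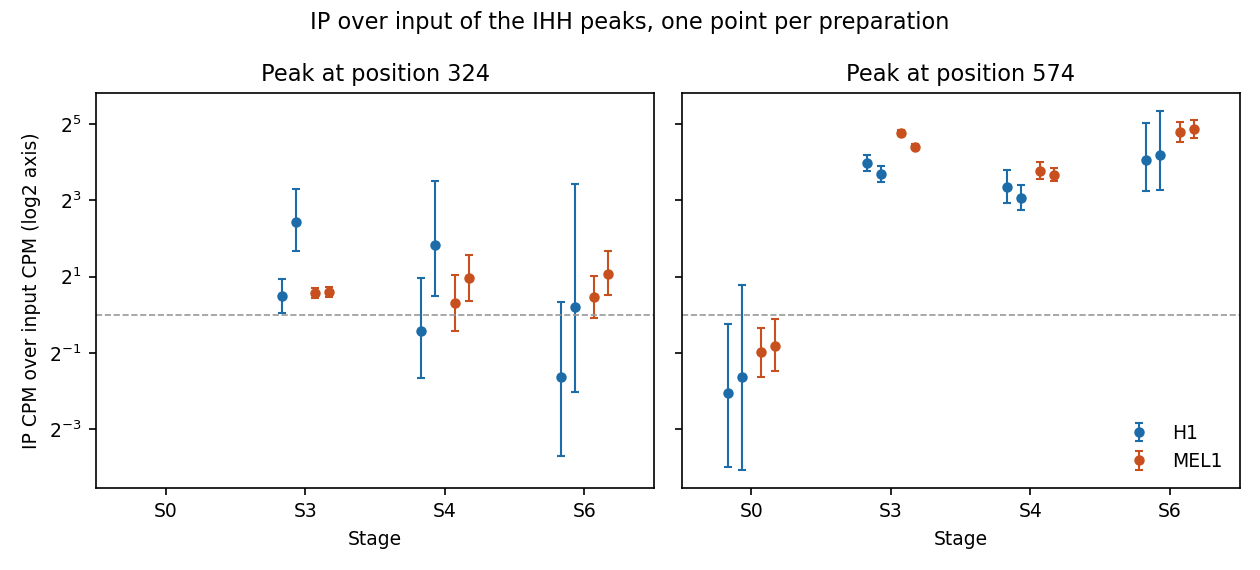
IP CPM over input CPM of the 2 IHH peaks in each preparation on a log2 axis, by stage (blue H1, orange MEL1). Bars are exact 95% counting intervals, the dashed line marks equal IP and input, and position 324 at S0 is not drawn because it held at most 2 reads in any library. At position 574 all preparations at S3, S4 and S6 lie between 8.34 and 29.3, and those at S0 lie below 1.

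IHH was enriched in the IP at both stages that the choice did not use. The log2 IP to input contrast at position 574 was 3.21 with a standard error of 0.41 at S4 (adjusted p = 2.28e-07, quasi-likelihood test of edgeR, Benjamini-Hochberg adjusted over 26104 peaks). At S6 it was 4.19 with a standard error of 0.43 (adjusted p = 3.9e-09, the same test). Of all peaks, 20.8% were called enriched at S4 and 28.4% at S6, while 32.1% and 34.6% were called depleted. In size of enrichment 370 peaks were above IHH at S4 and 194 at S6.

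Whether the change in m6A on IHH from S4 to S6 was called depended on the model. The log2 change in IP over input at position 574 was 0.98 with a standard error of 0.54 and an interval from -0.08 to 2.04, and it was not called (adjusted p = 0.312, quasi-likelihood interaction test of edgeR, Benjamini-Hochberg adjusted). With each preparation as a block, which pairs the input and IP library of the same RNA, it was 1.13 with a standard error of 0.32 and was called (adjusted p = 0.0609, the same test). In this comparison 5.31% of peaks were called higher and 2.26% lower, and the median over all peaks was 0.19, against -0.17 with DESeq2. Relative to the median, the change of IHH was 0.79 in the first model, 0.82 with the block and 0.89 with DESeq2. MEL1 alone gave 1.51 and was called (adjusted p = 0.0189, the same test). H1 alone gave 0.66 and was not called (adjusted p = 0.103, the same test). In MEL1 the IP level was 899 and 1351 CPM at S4 and 1170 and 1561 CPM at S6, which overlap. In H1 it was 136 and 126 CPM at S4 and 45.0 and 46.0 CPM at S6, which was 2.89-fold higher at S4, where the input at this position was 5.50-fold higher.

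The differences that involve the libraries used to choose IHH are given as values. The log2 change in IP over input at position 574 was 5.95 at S3, 5.01 at S4 and 5.99 at S6 against S0. The change at S6 against S3 was 0.04 with a standard error of 0.49. The change at S4 against S3 was -0.94, and it was -0.49 with DESeq2's scaling of the libraries. The median over all peaks moved with the scaling, from -0.36 to 0.12. Relative to that median, IHH lay at -0.59 and -0.61 in those scalings.

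The peak at position 324 differed from its neighbour in the same transcript. Its ratio of IP to input was 1.40 and 5.38 in H1 and 1.49 and 1.52 in MEL1 at S3. At S4 the ratio was 0.748 and 3.55 in H1 and 1.24 and 1.95 in MEL1. At S6 it was 0.321 and 1.15 in H1 and 1.37 and 2.10 in MEL1, with 2 to 35 input reads in each preparation. Neither stage was called enriched at this position. The log2 contrast was 0.51 with a standard error of 0.46 at S4 (adjusted p = 0.431, quasi-likelihood test of edgeR, Benjamini-Hochberg adjusted). At S6 the contrast was -0.09 with a standard error of 0.44 (adjusted p = 0.863, the same test). Leaving out the first H1 preparation of S4 brought the S4 contrast to 1.09 and past the threshold. The change from S4 to S6 was -0.60 (adjusted p = 0.928, the same test).

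From S3 on, the 2 peaks thus split the IHH reads differently in the 2 kinds of library. In the input libraries of S3 position 324 held 23.7% and 7.35% of IHH reads in the 2 preparations of H1, which differed widely, and 24.4% and 20.9% in those of MEL1. In the IP libraries of S3 it held 2.69% and 3.20% in H1 and 1.72% and 1.86% in MEL1. From S3 on, the share in single preparations was 5.88% to 33.3% in input and 0.951% to 3.20% in IP. At S0 the MEL1 input libraries had 2 of 80 IHH reads at position 324, a share of 2.50% (exact 95% binomial interval 0.304% to 8.74%), and H1 had 0 of 12, which allows up to 26.5%. The IP libraries of S0 had 2 of 95 reads at this position in MEL1, a share of 2.11% (0.256% to 7.40%), and 0 of 9 in H1. At S0 no difference between input and IP was thus seen. These intervals cover counting error only. The S0 and S3 libraries are those that chose the gene, so their shares are a description.

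MEL1 held more IHH than H1 at the stages outside the choice. Over S4 and S6 the log2 difference in input was 3.82 with a standard error of 0.17, a 14.1-fold difference (adjusted p = 2.95e-13, quasi-likelihood test of edgeR, Benjamini-Hochberg adjusted). It was higher in all 4 MEL1 preparations than in the H1 preparations of the same stage. Of all genes, 12.8% were called higher and 14.9% lower in MEL1. In the direction of higher in MEL1, 41 genes had a larger difference than IHH, and genes lower in MEL1 were not ranked beside it. In the same model, with TMM scaling, the difference was 8.76-fold at S4 and 22.8-fold at S6. In unscaled CPM it was 6.17-fold at S4 and 16.7-fold at S6.

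Markers of other cell types moved with the line. The summed level of 3 liver markers with counts (AFP, VTN and APOA1, of 6 listed) was 29100 to 30880 CPM in MEL1 and 450 to 455 CPM in H1 at S3. At S4 it was 55570 to 58650 CPM in MEL1 and 189 to 217 CPM in H1, and at S6 2590 to 2647 and 105 to 116 CPM. The intestinal markers VIL1 and CDX2, 2 of 6 listed, summed to 451 to 464 CPM in MEL1 and 19.4 to 20.6 CPM in H1 at S3. At S6 they summed to 402 to 446 CPM in MEL1 and about 108 CPM in H1. The mesenchymal list, with 3 of 6 genes counted, summed to 544 to 584 CPM in MEL1 and 46.7 to 75.5 CPM in H1 at S4, and to 103 to 107 CPM in MEL1 and 141 CPM in H1 at S6. The foregut list, of which all 6 genes had counts, summed to 2931 to 3107 CPM in MEL1 and 1023 to 1073 CPM in H1 at S3, against 9.01 to 12.9 CPM at S0, so the markers of the labelled cell type were present in both lines.

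Other lists were higher in H1 at some or all of the later stages. The neural list, with 3 of 6 genes counted, summed to 2540 to 2608 CPM in H1 and 36.5 to 43.4 CPM in MEL1 at S3, where STMN2 and NEFL had no reads in MEL1. In undifferentiated cells it already summed to 1044 to 1055 CPM in H1 and 1479 to 1646 CPM in MEL1. The H1 sums were 2588 to 2857 CPM at S4 and 3289 to 3314 CPM at S6. Those of MEL1 were 554 to 661 and 578 to 605 CPM. The 6 counted genes of the stem cell list, of 9, summed to 1592 to 1651 CPM in H1 at S3 and 310 to 350 CPM in MEL1, against 3676 to 4105 CPM at S0. The same genes summed to 2093 to 2100 CPM in H1 and 397 to 409 CPM in MEL1 at S4. Their S6 sums were 1024 to 1072 CPM in H1 and 389 to 419 CPM in MEL1. At S4 the 4 counted pancreatic progenitor markers, of 6, summed to 117 to 140 CPM in H1 and 39.2 to 41.2 CPM in MEL1, but at S6 they summed to 45.9 to 50.8 CPM in H1 and 146 to 147 CPM in MEL1. The 3 counted endocrine markers, of 8, were ISL1, CHGA and GLIS3, so INS was not among them. At S0, where ISL1 and GLIS3 had no reads, they summed to 221 to 234 CPM in H1 and 44.05 to 62.76 CPM in MEL1. They summed to 684 to 730 CPM in H1 and 59.2 to 62.6 CPM in MEL1 at S4. At S6 they summed to 1002 to 1039 CPM in H1 and 664 to 676 CPM in MEL1. The part of these lists in the IHH difference between the lines was not tested.

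Over S4 and S6 together the lines were not told apart in IP over input once libraries were scaled. On unscaled CPM the ratio at position 574 was higher in MEL1 than in H1 at S4 and S6. In the fitted model, with TMM scaling, the log2 difference was -0.25 with an interval from -0.73 to 0.23 (adjusted p = 0.496, quasi-likelihood test of edgeR, Benjamini-Hochberg adjusted). DESeq2 gave 0.03 and scaling within each kind of library 0.07, and leaving out the first H1 preparation of S4 gave 0.25, so no direction is given. Relative to the median over all peaks, which was -0.28, the difference over S4 and S6 was 0.03. By stage the same model gave -0.60 at S4, with an interval from -1.21 to 0.0057, and 0.10 at S6, with an interval from -0.75 to 0.95, so the average joins values of opposite sign. At S3, a stage used in the choice and given as a description, MEL1 was higher by 0.89 with an interval from 0.31 to 1.47. Of all peaks, 8.05% were called higher and 18.6% lower in MEL1. At position 324 the difference was -0.09 and was not called. The difference between the lines in the change from S4 to S6 was 0.70 at position 574 (adjusted p = 0.389, the same test) and was not called, where 8.80% of peaks were called higher and 12.3% lower.

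A few genes followed the input course of IHH closely. Over the 16 input libraries the highest Pearson correlations with IHH in log2 CPM, among 7972 genes, were those of ALPK3 (0.958), SIPA1L3 (0.957), LINC00479 (0.956), VIL1 (0.953) and TMEM185AP1 (0.946). VIL1 encodes villin, an actin-binding protein of the intestinal brush border, and ALPK3 encodes a protein of the kinase family known from heart muscle. LINC00479 had 0 or 1 read in each S0 library, 44 to 57 in H1 at S3 and 288 to 358 in MEL1 at S3. VIL1 had 0 to 4 reads at S0, 24 to 32 in H1 at S3 and 135 to 158 in MEL1 at S3. TMEM185AP1 is a pseudogene whose reads may be shared with its parent gene, so its values are uncertain. The libraries share stages and lines, so these coefficients describe a pattern and carry no test. By Spearman's coefficient 2 of these 5 genes were again among the 5 closest.

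**Figure D3:**
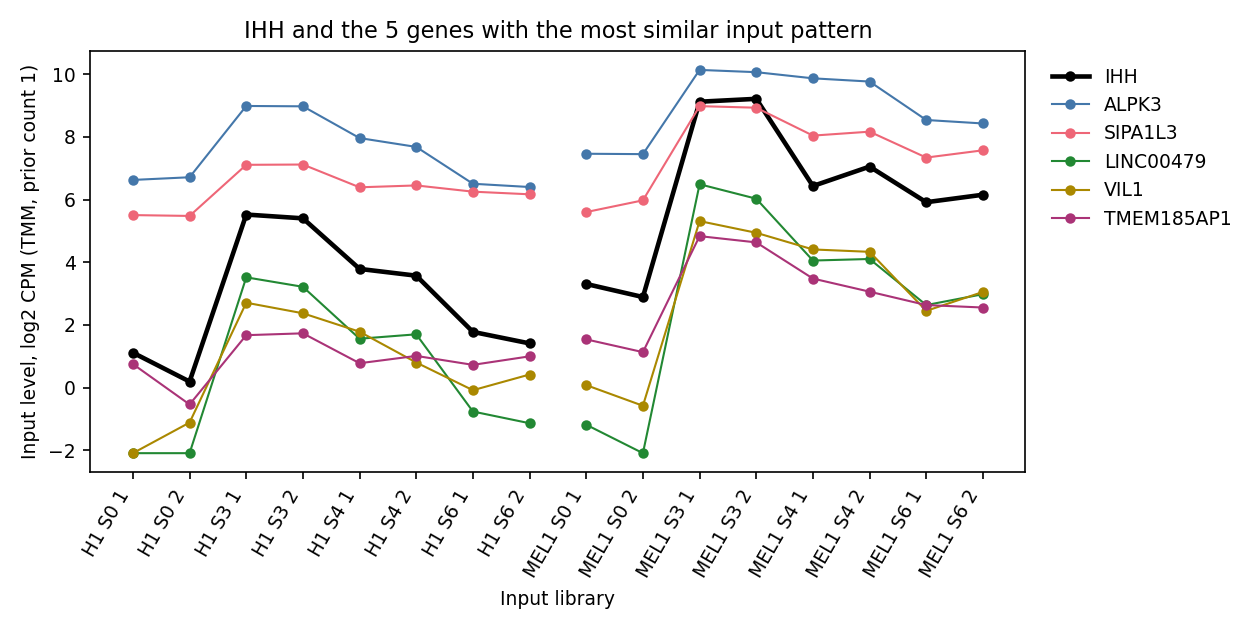
Input level of IHH (black) and of the 5 genes with the highest Pearson correlation to it, in log2 CPM after TMM scaling with a prior count of 1, in each of the 16 input libraries. All 6 lines peak at S3 in each cell line, where IHH reaches 5.52 and 5.40 in H1 and 9.12 and 9.21 in MEL1.

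Among peaks of other genes, the ratio of IP to input was most like that at position 574 in FOXA1, GATA6, GCNT3, FOXA2 and FGA, with Pearson correlations from 0.895 to 0.931 over the 16 preparations, among 7075 genes. FOXA1, FOXA2 and GATA6 encode transcription factors of endoderm, GCNT3 an enzyme of mucin glycosylation and FGA a chain of fibrinogen. In FOXA1 at position 1983 the log2 ratio was -2.43 to -0.18 at S0 and 2.18 to 2.80 at S3. None of the 5 was among the 5 closest by Spearman's coefficient.

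Other parts of the Hedgehog pathway did not share one direction. Of 42 listed genes besides IHH, 28 had counts, and the others were not analysed here. At S3 against S0, 7 of 28 were called higher (25%, against 15.0% of all genes) and 3 lower (10.7%, against 13.8%). The median log2 difference was 0.58 over the list and -0.02 over all genes. This contrast shares its libraries with the choice of IHH.

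The other ligand with counts, SHH, had no reads in any S0 library. At S3 it had 16 reads in each H1 preparation and 0 and 5 in MEL1, a level at least 3.36-fold higher than 3 reads per S0 library would give. At S3 SHH thus had more reads in H1, whereas IHH had more in MEL1, and neither difference was tested at this stage. Its counts at S6 were 15 and 9 in H1 and 17 and 21 in MEL1. SCUBE3, a secreted protein of the family that releases Hedgehog ligand from cells, was also called higher at S3 (2.60).

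Among receptors and co-receptors, LRP2, an endocytic receptor that binds Hedgehog ligand, was called higher at S3 by 4.19 on the log2 scale with a standard error of 0.54 (adjusted p = 2.35e-05, quasi-likelihood test of edgeR, Benjamini-Hochberg adjusted). It had 0 to 4 reads in the S0 libraries and 30 to 64 at S3. PTCH1, the Patched receptor and itself a target of the pathway, was not called. In H1 it was 7.32 and 5.69 CPM at S0 and at least 15.5 CPM in both preparations of S3. In MEL1, the line with more IHH, it was 3.78 and 4.30 CPM at S0 and 4.35 and 2.34 CPM at S3, which overlap. SMO, the transducer that SANT-1 blocks, had a log2 difference of 0.94 and stayed under the 2-fold limit (adjusted p = 0.000843, quasi-likelihood test of edgeR, Benjamini-Hochberg adjusted).

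Of the 3 GLI factors, GLI1 and GLI2 were called lower at S3 and GLI3 was not called. GLI1, a target and transducer of the pathway, differed by -2.02 with a standard error of 0.47 (adjusted p = 0.00312, quasi-likelihood test of edgeR, Benjamini-Hochberg adjusted). It had 82 and 73 reads at S0 and 40 and 38 at S3 in H1, and 55 and 80 at S0 and 2 and 11 at S3 in MEL1. GLI2 had 346 and 355 reads at S0 and 340 and 289 at S3 in H1, while in MEL1 it had 342 and 429 at S0 and 4 and 14 at S3. The gap between the stages was thus far wider in MEL1 than in H1. GLI3 had a log2 difference of 0.11 with a standard error of 0.60, with 65 and 54 reads at S0 and 256 and 263 at S3 in H1, but 78 and 80 at S0 and 8 and 26 at S3 in MEL1. The lines thus went opposite ways in GLI3, and the differences between the lines in these factors were not tested. CCND2, a cyclin that the pathway can induce, was the third gene called lower (-1.71). SUFU, which restrains GLI proteins, was called higher (1.20), as were the kinase STK36 (1.31) and, of the proteins that act at the primary cilium, GPR161 (2.03) and EVC (1.71).

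After S3 few of these genes were called. From S3 to S4, GAS1, a co-receptor, rose by 2.27 (adjusted p = 0.0587) and CCND2 by 2.68 (adjusted p = 0.0514, both from the quasi-likelihood test of edgeR, Benjamini-Hochberg adjusted), 2 of 28 genes (7.14%) against 1.49% of all genes. None was called lower, also at an unadjusted p under 0.05 or by DESeq2, against 0.351% of all genes. In GAS1 the 2 MEL1 preparations of S3 differed widely, with 1 and 54 reads. Neither call was made without the second MEL1 preparation of S4 or with a block by line and replicate number, and 1 gene of the list was called without each of the other S3 or S4 preparations in turn. None of the 28 was called from S4 to S6, the step in which IHH fell, by edgeR's quasi-likelihood test, against 2.85% of all genes called higher and 2.33% called lower. At an unadjusted p under 0.05, 1 was higher and 5 were lower, and DESeq2 called 1 higher and 0 lower.

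**Figure D4:**
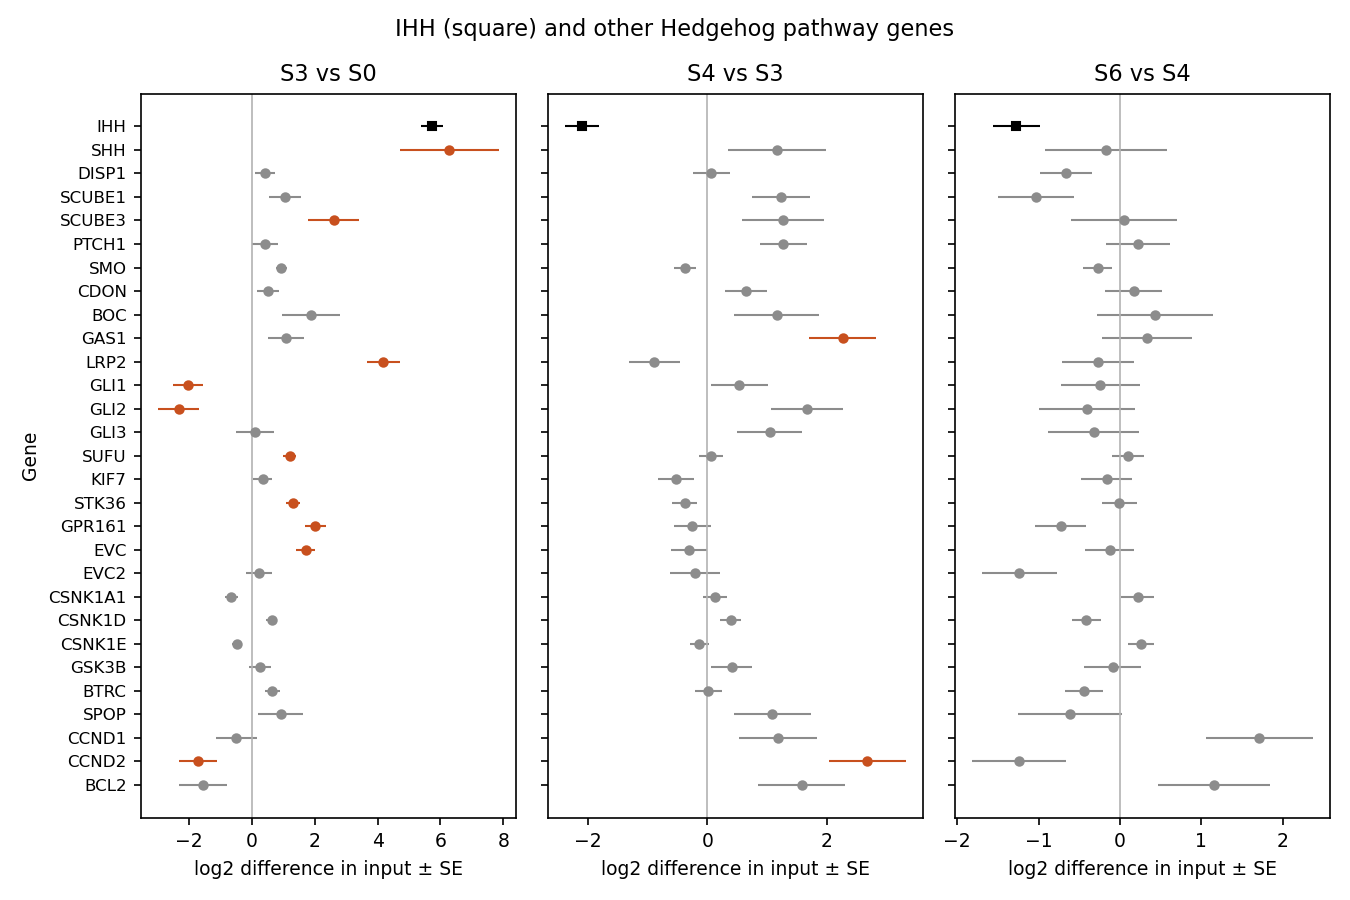
Log2 difference in input level with its standard error for IHH (black square) and 28 other Hedgehog pathway genes in 3 stage comparisons. Orange marks called genes, grey those not called, and IHH is drawn without a test in the first 2 panels. IHH lies at 5.73, -2.10 and -1.28, and the value drawn for SHH at S3 depends on the prior count because it had no reads at S0.

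In the m6A measure the 28 genes had 136 peaks. At S3 against S0 none of the 136 was called by edgeR's quasi-likelihood test, and 0.0306% of all peaks were called higher and 0.0192% lower. At an unadjusted p under 0.05, 3 of the 136 were higher and 0 lower, and DESeq2 called none. From S3 to S4, 1 of the 136 was called higher (0.735%, against 0.751% of all peaks), a peak of SCUBE1, and 5 lower (3.68%, against 5.85% of all peaks). Without the first H1 preparation of S4 none of the 6 was called, and the calls over all peaks went from 196 higher and 1528 lower to 112 higher and 130 lower. From S4 to S6, 7 were called higher (5.15%, against 5.31%) and 0 lower (against 2.26%), with 2 lower at an unadjusted p under 0.05 and 3 lower by DESeq2. The called peaks lay in EVC, GLI2, GSK3B, CSNK1A1, DISP1 and, with 2 peaks, CSNK1E. Some of these peaks held few reads. In any library, CSNK1E at position 397 had at most 67 input and 32 IP reads, and GSK3B at position 7257 at most 23 and 42. The other called peak of CSNK1E had up to 442 input and 4473 IP reads. The split of calls moved with the scaling of the libraries. Scaling by relative log expression gave 1 higher and 1 lower from S3 to S4 and 3 higher and 0 lower from S4 to S6 in the list. Over all peaks the split from S4 to S6 went from 1387 higher and 591 lower to 730 higher and 942 lower.

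Depth limits these values in the scarcest groups. Input libraries held 2652830 to 6879256 reads and IP libraries 2378881 to 15674899, with the MEL1 S4 IP libraries the shallowest. Mitochondrial transcripts took 11.6% to 41.0% of input reads and at most 2.25% of IP reads. Leaving both MEL1 S4 preparations out gave -1.60 for the input change of IHH from S4 to S6 and 0.78 for the m6A change at position 574.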

How the data were processed

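Each RNA preparation was split, so that an input library was kept before immunoprecipitation with an m6A antibody. Per the labels and the study's methods the authors used stranded libraries, counted reads in 50-bp bins with Ensembl annotation 94 and merged peaks with MeRIPtools, and deposited raw counts per merged peak without normalization. The aligner and genome build are not given in the sources used here. IHH and the gene lists were chosen with earlier results of these data known. A gene's input count was the sum over its merged peaks, although a table per gene had been planned for, so that a gene with no merged peak has no value here. Of 7978 genes, 7596 carried a symbol in the reference table.

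The counts were fitted in edgeR 4.0.16 under R 4.3.3 (TMM, quasi-likelihood test, a minimum total of 10, which left 7973 genes and 26104 peaks) and DESeq2 1.42.0 as an alternative. Input was modelled with stage and cell line over 16 libraries, m6A over 32 as the stage by library type interaction, and line differences in a model of group means. Calls required at least a 2-fold difference together with an adjusted p (Benjamini-Hochberg) under 0.1. Standard errors are the log2 difference divided by the square root of F, and intervals are 1.96 standard errors either side. Named genes were IHH, every called gene of a fixed Hedgehog list and those whose role is described, and the 5 genes closest to IHH by Pearson correlation for input and for m6A (peaks with at least 160 input reads). The alternatives were other scalings and filters, no cell line, blocks, single lines and each preparation left out. Preparations pair input with IP by design. The deviations of the paired libraries from their group means correlated at -0.251 to 0.104 over the 8 groups. Replicate libraries differed by more than counting noise, with a chi-square per degree of freedom from 1.69 to 36.5. Tests were tried on simulated counts. Plots used Python 3.11.15 with matplotlib 3.10.9, and exact intervals scipy 1.17.1.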

Additional observations from a re-analysis of the deposited data

Results flagged for a closer look

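The change of IHH input from S4 to S6 differed between the cell lines. The difference, MEL1 minus H1, was 1.38 on the log2 scale with a standard error of 0.37 (adjusted p = 0.0125, quasi-likelihood interaction test of edgeR, Benjamini-Hochberg adjusted). IHH went from 15.8 and 16.1 CPM to 4.04 and 3.06 CPM in H1 and from 77.3 and 119 CPM to 54.1 and 64.2 CPM in MEL1. Without each S4 or S6 preparation in turn the difference ran from 1.05 to 1.70, and its adjusted p from 0.00302 to 0.0843. Groups held 2 preparations, so single preparations were not screened for lying apart from their group.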

How the results depend on the processing

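Over 13 tested IHH results, 175 of 202 alternatives kept the direction and the side of the threshold. The input fall from S4 to S6 ran from -1.48 to -1.09 with each S4 or S6 preparation left out and was called each time. It was not called without the cell line (-0.85) or in MEL1 alone (-0.74). The m6A change at position 574 was called with the preparation as a replicate block (1.13) and in MEL1 alone (1.51) but not in H1 alone (0.66). The block changed no other IHH call. The line difference in m6A at position 574 turned positive with DESeq2 (0.032), RLE (0.036) and scaling within library type (0.075), and ran from -0.31 to 0.25 with a preparation left out, never called.

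Among untested values at position 574, S4 against S0 and S4 against S3 were 5.38 and -0.49 with DESeq2, 5.36 and -0.49 with RLE, 5.28 and -0.62 with scaling within library type, and 5.26 and -0.60 without mitochondrial genes, where S6 against S3 was 0.27.

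At position 324 the line difference turned positive with DESeq2 (0.23), RLE (0.21), scaling within library type (0.24) and no mitochondrial genes (0.13), and ran from -0.61 to 0.50 with a preparation left out. Without the cell line its S4 and S6 contrasts were -0.074 and 0.24 and the change between them 0.32. In MEL1 alone these were -0.21, 0.27 and 0.48, and scaling within library type gave 0.25 at S6. With a preparation left out the S4 contrast ran from -0.14 to 1.09, the S6 contrast from -0.45 to 0.17 and the change from -0.96 to 0.043.

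For the Hedgehog list in input, DESeq2 called 4 higher from S3 to S4 and 1 higher from S4 to S6. Without the cell line 1 was higher from S3 to S4, and with a block by line and replicate number 0. With a preparation left out the counts ran from 0 to 2 from S3 to S4, and from 0 to 1 in each direction from S4 to S6. Same-numbered inputs of different stages correlated in their deviations at -0.0772 to 0.0461 in H1 and 0.185 to 0.248 in MEL1. The numbers were not taken to pair stages. As every MEL1 pair was above 0.1, a pairing by number in that line may be left out of the main fits. With the number block the input fall of IHH from S4 to S6 was -1.29 and was still called.

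For the list's m6A peaks from S3 to S4, DESeq2 called 3 higher, RLE 1 lower, no cell line 0 higher and 3 lower, and the preparation block 9 lower. From S4 to S6 DESeq2 called 3 lower and RLE 3 higher. With a preparation left out the counts from S3 to S4 ran from 0 to 2 higher and from 0 to 10 lower, and from S4 to S6 from 4 to 9 higher and from 0 to 1 lower. With the IP numbers of MEL1 S0 and S3 crossed in the block, chosen after seeing the data because those pairs correlated below zero, 0 were higher and 9 lower from S3 to S4.

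Over all genes, calls from S3 to S4 were 119 higher and 28 lower, and 247 and 50 with DESeq2, 24 and 4 without the cell line and 75 and 18 with the number block. These calls ran from 58 to 163 higher and from 15 to 32 lower with a preparation left out. From S4 to S6 the gene calls were 227 and 186, and 79 and 70 without the cell line. They ran from 137 to 310 higher and from 111 to 236 lower with a preparation left out. Over all peaks, calls from S3 to S4 were 196 and 1528, and 1072 and 948 with DESeq2, 274 and 333 with RLE and 85 and 747 without the cell line. At S3 against S0 they were 8 and 5, and 34 and 133 with DESeq2 and 2 and 2 without the cell line. From S4 to S6 they were 1387 and 591, and 1303 and 2146 with DESeq2, 730 and 942 with RLE and 782 and 353 without the cell line. With a preparation left out, the peak counts from S3 to S4 ran from 65 (second MEL1 S3) to 385 (first MEL1 S4) higher and from 130 (first H1 S4) to 2258 (first MEL1 S4) lower. From S4 to S6 they ran from 612 (first H1 S4) to 1952 (first MEL1 S4) higher and from 205 (first MEL1 S6) to 749 (first MEL1 S4) lower, and at S3 against S0 from 4 to 9 higher and 1 to 7 lower. The background shares move with them. The causes were not tested. The counts of IHH at S0 and of H1 at S6 limit its ratios there.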
